A study of Arabidopsis thaliana with 9 samples.

Results

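The 7 membrane-bound fatty acid desaturase genes FAD2, FAD3, FAD4, FAD5, FAD6, FAD7 and FAD8 of Arabidopsis thaliana were followed through a seedling RNA-seq series on low water potential. They were chosen by locus, 7 of the 33518 genes in each deposited table, and all 7 had reads in every library. In the libraries labelled release, the transcripts of FAD5, FAD7 and FAD8, which act in plastids, were at least 2-fold lower than in the control library in p5cs1-4 and in the wild type. Of all genes compared, 11.8% were as far lower in p5cs1-4 and 14.0% in the wild type. In aba2-1, whose control library was below that of the wild type for all 7 genes, FAD5, FAD7 and FAD8 were less than 2-fold apart, where 10.2% of all genes were apart. FAD2, the oleate desaturase of the endoplasmic reticulum (ER), was higher in the library labelled release than in that labelled stress in all 3 genotypes. It was the only one of the 7 to pass edgeR's test of a model over all libraries, where 1.54% of all genes were called higher in that contrast. The call was lost without the WT, the p5cs1-4 or the control libraries.

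The 9 libraries crossed 3 genotypes with 3 treatments and were made from polyadenylated RNA of whole seedlings. The genotypes were aba2-1, a mutant of the abscisic acid (ABA) synthesis gene ABA2, p5cs1-4, a mutant of the proline synthesis gene P5CS1, and the wild type Col-0 (WT). Both mutant lines are in the Col-0 background, each is 1 allele, and no complemented line was included among these libraries. All seedlings grew for 7 days on sugar-free agar plates under continuous light, and were then moved for 96 h to fresh control plates at -0.25 MPa or to plates at -1.2 MPa infused with polyethylene glycol 8000. For stress release, seedlings went back from the stress plates to control plates and were sampled 10 h later. Each library pooled RNA of 3 separate experiments, so that a group is 1 library and a difference between 2 libraries has no replicate check. Per library, between 4898426 and 18273148 estimated reads fell on genes.

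The labels and the marker transcripts did not match. PRODH1 (listed as ERD5), the proline dehydrogenase that is known to be repressed at low water potential and induced on release, was at 33.6, 20.1 and 25.5 CPM in the aba2-1, p5cs1-4 and WT libraries labelled release, against 401, 240.4 and 188 CPM in those labelled stress. CPM is the count per 1000000 reads after scaling between libraries. P5CS1, which is known to be induced at low water potential, was at 1389, 1199 and 3918 CPM in the aba2-1, p5cs1-4 and WT libraries labelled release and at 91.2, 174 and 74.1 CPM in those labelled stress. RAB18, a dehydrin gene known to respond to ABA, was at 66.2, 4778 and 4950 CPM in the aba2-1, p5cs1-4 and WT libraries labelled release and at 5.15, 81.4 and 13.9 CPM in those labelled stress. The aba2-1 control also stood apart from the other controls, with RAB18 at 252 CPM against 22.4 CPM in p5cs1-4 and 31.4 CPM in WT, and P5CS1 at 634 CPM against 125 and 195 CPM. Its RAB18 level was above that of the aba2-1 library labelled release. In the names of the deposited tables the libraries labelled stress end in R and those labelled release in S. Libraries are therefore called labelled stress and labelled release throughout, and which of them came from the plates at -1.2 MPa was not tested. As for the mutated genes, P5CS1 was at 125, 174 and 1199 CPM in the p5cs1-4 control, labelled stress and labelled release libraries, against 195, 74.1 and 3918 CPM in WT. ABA2 was at 15.6, 16.9 and 20.3 CPM in aba2-1 and at 19.8, 19.1 and 22.0 CPM in WT, so its reads do not tell the genotypes apart.

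Fatty acid desaturases put double bonds into acyl chains, and the degree of unsaturation sets the fluidity of plant membranes. As background, oleate is turned into linoleate and then into linolenate along parallel routes. FAD2 and FAD3 carry out the 2 steps on phospholipids of the ER, with electrons from cytochrome b5. FAD6 and then FAD7 or FAD8 carry them out on plastid lipids, with electrons from ferredoxin. FAD5 desaturates palmitate on monogalactosyldiacylglycerol, the main lipid of thylakoids, and FAD4 introduces a trans double bond into the palmitate of phosphatidylglycerol. Linolenate, the product of the omega-3 desaturases FAD3, FAD7 and FAD8, is also the precursor of jasmonate.

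In the TAIR10.1 annotation all 7 genes are protein-coding. FAD2 (AT3G12120) lies at chr3:3860251-3863250 on the minus strand with 1 coding exon of 1152 bases, and FAD3 (AT2G29980) at chr2:12781524-12785190 on the minus strand with 8. FAD4 (AT4G27030) lies at chr4:13571813-13573070 on the plus strand with 1 coding exon, and FAD5 (AT3G15850) at chr3:5358601-5361185 on the plus strand with 5. FAD6 (AT4G30950) lies at chr4:15056975-15059846 on the minus strand with 10 coding exons. FAD7 (AT3G11170) at chr3:3499537-3502452 and FAD8 (AT5G05580) at chr5:1664040-1666531 lie on the plus strand with 8 each. The deposited tables give no coordinates, and the locus names were matched to TAIR10.1.

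Iron-binding histidine boxes are the mark of this enzyme family. A search of the coding sequences for in-frame codons of histidine, any 2 residues, histidine and histidine found 2 such boxes in FAD2, FAD3, FAD5, FAD6, FAD7 and FAD8 and 1 in FAD4. The box nearer the carboxyl end is shown for FAD2 and FAD3 of the ER and FAD6 of plastids, so that the successive ER steps and both compartments can be compared, from codon 315 of FAD2, 304 of FAD3 and 367 of FAD6, with the histidine codons in capitals. They are read 5′ to 3′ on the coding strand, at chr3:3860787-3860801, chr2:12782122-12782136 and chr4:15057653-15057667 in that order.
FAD2: CACgtggctCATCAC
FAD3: CACgtgatcCATCAT
FAD6: CACatcccgCATCAT
FAD7 and FAD8 are the pair whose coding sequences are the most alike of the 7. They were identical at 1100 of 1290 aligned bases (85.3%). FAD3 was 69.6% identical to FAD8 and 69.1% to FAD7, while the other 18 pairs lay between 57.4% and 64.3%.

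How well reads tell FAD7 and FAD8 apart was read from the share listed as mapping to several places. FAD7 had no reads listed as mapping to several places in any library, nor had FAD2, FAD3, FAD5 and FAD6. By that listing FAD7 shared no reads with FAD8. In FAD8, between 6.67% and 19.3% of the reads mapped to several places, and in FAD4 between 0% and 9.48%. FAD8 also carries 234 bases at its 3′ end, chr5:1666264-1666497, that recur exactly at chr1:2409882-2410115 in PAI1, a tryptophan synthesis gene, and it overlaps the antisense gene PAI2. FAD4 overlaps the antisense gene VPS22. Stretches of its coding sequence also recur exactly elsewhere. The longest, of 63 bases, recurs at chr3:12648828-12648890 on the minus strand, outside annotated genes. Another, of 33 bases, recurs at chr1:22981585-22981617, where AT1G62190 and AT1G62200 are annotated. The part of these copies in the FAD4 counts was not tested. Whether the authors counted by strand is not given in the sources used here, so FAD8 and FAD4 are the less certain of the 7. PAI2 was highest in the aba2-1 library labelled stress at 26.1 CPM and lowest in the WT control at 8.38 CPM, and PAI1 lay between 19.3 and 31.7 CPM. Their part in the FAD8 counts was not tested.

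Because 1 of the mutants lacks normal ABA synthesis, the 250 bases before each annotated gene start were searched on both strands for ACGTG (the core of the ABA-responsive element), CACGTG (the G-box, which holds ACGTG within it) and CCGAC (the core of the dehydration-responsive element). ACGTG was present in 22.9% of 27443 such windows of the genome, CACGTG in 6.49% and CCGAC in 12.0%. Of the 7 genes, FAD2 and FAD3 had 1 ACGTG each, and none of the 7 held CACGTG or CCGAC. The window of FAD5 overlaps the neighbouring gene AT3G15840 and that of FAD8 the gene AT5G05570, so part of each is sequence of another gene. The windows of FAD2 (chr3:3863251-3863500, minus strand), FAD3 (chr2:12785191-12785440, minus strand) and FAD7 (chr3:3499287-3499536, plus strand) are shown, 5′ to 3′, with ACGTG in capitals. They set the pair with a match beside the more abundant plastid omega-3 gene, which had none.
FAD2: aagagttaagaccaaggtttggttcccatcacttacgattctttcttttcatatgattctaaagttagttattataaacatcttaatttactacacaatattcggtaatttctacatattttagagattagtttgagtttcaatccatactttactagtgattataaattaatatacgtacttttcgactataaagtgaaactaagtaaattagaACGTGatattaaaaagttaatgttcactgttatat
FAD3: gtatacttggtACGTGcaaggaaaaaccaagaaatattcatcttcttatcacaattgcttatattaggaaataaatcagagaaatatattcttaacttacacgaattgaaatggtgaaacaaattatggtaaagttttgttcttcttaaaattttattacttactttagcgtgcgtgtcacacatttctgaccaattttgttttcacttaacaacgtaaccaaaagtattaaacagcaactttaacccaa
FAD7: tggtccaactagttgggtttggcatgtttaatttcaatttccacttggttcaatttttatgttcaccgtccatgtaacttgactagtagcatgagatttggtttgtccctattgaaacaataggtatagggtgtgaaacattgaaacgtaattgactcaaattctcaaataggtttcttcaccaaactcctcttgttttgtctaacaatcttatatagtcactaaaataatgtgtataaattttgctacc
The match began 35 bases before the start in FAD2 and 239 bases before it in FAD3. These are matches of letters and not mapped sites.

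Levels of different genes were compared by the deposited RPKM, which scales reads by gene length and by library total. FAD2 was the most abundant of the 7 in every library, with 255 RPKM at its lowest, a median of 782 and 1419 at its highest. FAD6 followed at 142 to 244 RPKM with a median of 194, and after it FAD7 at 49.6 to 156 RPKM with a median of 105. FAD5 lay between 27.2 and 123 RPKM, FAD3 between 28.9 and 59.3, FAD4 between 10.7 and 25.4, and FAD8 between 1.49 and 16.4. This order held within each library apart from a swap in 2 of them. In the aba2-1 library labelled stress FAD8 was at 14.2 RPKM and FAD4 at 11.2 RPKM, with 95% counting intervals that overlap. In the p5cs1-4 library labelled release FAD3 was at 47.0 RPKM and FAD5 at 27.2 RPKM, with intervals that do not. FAD4 and FAD8 had overlapping counting intervals in the p5cs1-4 library labelled stress and the WT control as well, as did FAD5 and FAD3 in the WT library labelled release. Such intervals cover counting error alone and not the spread between seedlings or experiments. They take reads as independent molecules, which PCR reads without molecular identifiers are not, so that they may be too narrow.

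The genes differed in how much they varied. FAD6 had the narrowest range over the 9 libraries, with a highest RPKM 1.71 times its lowest, followed by FAD3 at 2.05 times and FAD4 at 2.37 times. FAD7 spanned 3.15 times, FAD5 4.51 times and FAD2 5.57 times. FAD8 spanned 11.0 times, and its lowest value rests on 23 reads.

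**Figure D1:**
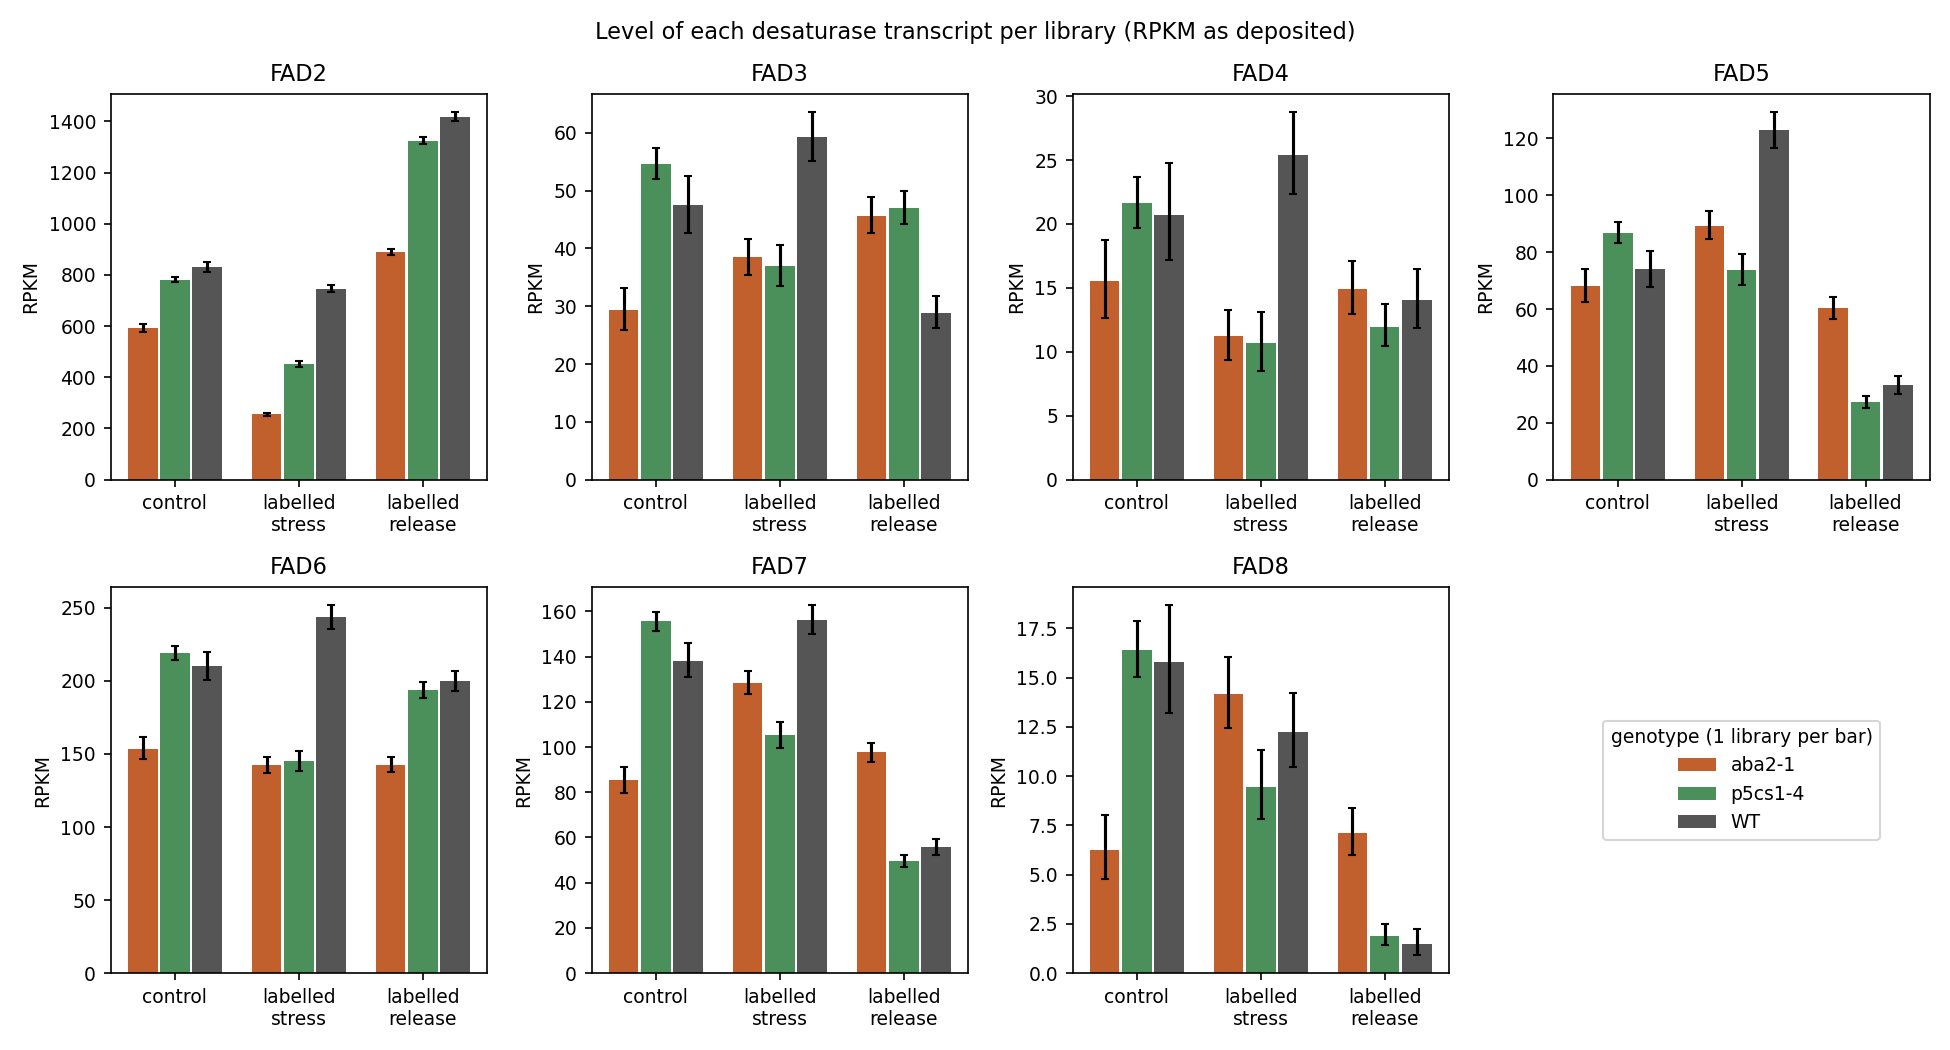
RPKM of each desaturase gene as deposited (linear vertical axes from 0, a separate scale for each gene) in the control, labelled stress and labelled release libraries of aba2-1, p5cs1-4 and WT. Each bar is 1 library of pooled RNA and the error bars are 95% counting intervals; FAD8 is at 1.49 RPKM in WT and 1.90 RPKM in p5cs1-4 in the libraries labelled release, against 7.12 RPKM in aba2-1.

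Between libraries, genes were compared as the log2 ratio of CPM + 1, and a gene was counted as apart at 2-fold or more if 1 of the libraries had 5 CPM or more. Folds with their intervals are plain ratios of CPM. The counts below are set beside the share of all genes past that floor that were as far apart. In bulk RNA of whole seedlings, fewer cells of a type and less RNA per cell cannot be told apart.

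FAD2, the gateway to polyunsaturated fatty acids in the ER, had 1125, 439 and 1458 CPM in the aba2-1 control, labelled stress and labelled release libraries. It had 1552, 781 and 2337 CPM in p5cs1-4, and 1737, 1461 and 2635 CPM in WT. In each genotype the library labelled release was the highest of the 3 and that labelled stress the lowest. Labelled release against labelled stress gave 3.32-fold in aba2-1 (95% counting interval 3.21 to 3.43), 2.99-fold in p5cs1-4 (2.91 to 3.08) and 1.80-fold in WT (1.76 to 1.84). Labelled release against control gave log2 ratios of 0.37, 0.59 and 0.60 in aba2-1, p5cs1-4 and WT. Labelled stress against control gave -1.35 in aba2-1, -0.99 in p5cs1-4 and -0.25 in WT.

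FAD3, the omega-3 desaturase of the ER, did not share that pattern. It had 48.8, 57.9 and 65.3 CPM in the aba2-1 control, labelled stress and labelled release libraries, 94.7, 55.9 and 72.5 CPM in p5cs1-4, and 86.4, 101 and 46.9 CPM in WT. The library labelled release was the highest of the 3 in aba2-1 and the lowest in WT. In WT, labelled release against labelled stress was 0.463-fold (0.409 to 0.522), and in aba2-1 it was 1.13-fold (1.02 to 1.25).

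FAD6, the omega-6 desaturase of plastids, had 293, 246 and 234 CPM in the aba2-1 control, labelled stress and labelled release libraries, 436, 252 and 343 CPM in p5cs1-4, and 440, 478 and 373 CPM in WT. It was less than 2-fold apart in each of the 15 comparisons of 2 libraries. Labelled release against control gave log2 ratios of -0.32, -0.35 and -0.24 in aba2-1, p5cs1-4 and WT.

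FAD7, the main omega-3 desaturase transcript of plastids here, had 168, 229 and 165 CPM in the aba2-1 control, labelled stress and labelled release libraries, 319, 189 and 90.4 CPM in p5cs1-4, and 298, 316 and 107 CPM in WT. In p5cs1-4 and WT the library labelled release was the lowest of the 3 by far, while in aba2-1 it was level with the control. Labelled release against control was 0.283-fold in p5cs1-4 (0.267 to 0.301) and 0.359-fold in WT (0.329 to 0.391), against 0.985-fold in aba2-1 (0.911 to 1.07). The aba2-1 ratios to control for FAD7 and FAD8 rest on the control library in which RAB18 was at 252 CPM, whose part was not tested. By the deposited RPKM these 2 ratios turned to log2 values of 0.19 for FAD7 and 0.16 for FAD8, against -0.02 and -0.03 by CPM.

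FAD8, the second plastid omega-3 desaturase, is known in Arabidopsis for its role at low temperature. Apart from labelled stress against control in WT, it had the pattern of FAD7, mostly with wider differences. In that comparison FAD8 was at 0.728-fold (0.578 to 0.918) and FAD7 at 1.06-fold (0.991 to 1.14). FAD8 had 11.4, 23.3 and 11.1 CPM in the aba2-1 control, labelled stress and labelled release libraries, 31.1, 15.7 and 3.20 CPM in p5cs1-4, and 31.4, 22.9 and 2.64 CPM in WT. The counts behind the libraries labelled release were 143 reads in aba2-1, 49 in p5cs1-4 and 23 in WT. Labelled release against control was 0.103-fold in p5cs1-4 (0.0752 to 0.138) and 0.0840-fold in WT (0.0515 to 0.131), against 0.981-fold in aba2-1 (0.722 to 1.35). The aba2-1 library labelled stress was the one in which FAD8 stood above its control, at 2.05-fold (1.55 to 2.76).

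FAD5, which makes the palmitate-derived unsaturation of galactolipids, followed the plastid omega-3 genes. It had 101, 120 and 77.1 CPM in the aba2-1 control, labelled stress and labelled release libraries, 135, 100.0 and 37.6 CPM in p5cs1-4, and 121, 188 and 48.2 CPM in WT. All 3 libraries labelled release lay below all 6 others. Labelled release against control was 0.760-fold in aba2-1 (0.684 to 0.845), 0.279-fold in p5cs1-4 (0.254 to 0.305) and 0.400-fold in WT (0.351 to 0.456).

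FAD4, the desaturase of plastid phosphatidylglycerol, was low throughout. It had 19.2, 12.5 and 15.9 CPM in the aba2-1 control, labelled stress and labelled release libraries, 27.9, 12.0 and 13.8 CPM in p5cs1-4, and 28.2, 32.4 and 17.0 CPM in WT. The control and WT labelled stress libraries held its 4 highest values. In p5cs1-4 labelled stress against control was 0.430-fold (0.339 to 0.540), and in WT it was 1.15-fold (0.920 to 1.44).

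Counted over the 7 genes, labelled release against control put 0 genes apart in aba2-1, where 10.2% of all genes past the floor were apart. In p5cs1-4 it put FAD5, FAD7 and FAD8 lower, 3 of 7 against 11.8% of all genes lower, and in WT the same 3 genes lower against 14.0%. The median log2 ratio of the 7 was -0.03 in aba2-1, -0.97 in p5cs1-4 and -0.87 in WT, where the medians of all genes were -0.02, 0.00438 and -0.000454. Labelled release against labelled stress put FAD2 higher in aba2-1, 1 of 7 against 3.79% of all genes, and FAD8 lower, 1 of 7 against 5.64%. In p5cs1-4 it put FAD2 higher, 1 of 7 against 5.98%, and FAD5, FAD7 and FAD8 lower, 3 of 7 against 6.21%. In WT it put FAD3, FAD5, FAD7 and FAD8 lower, 4 of 7 against 11.6%. These comparisons share libraries within a genotype, so that they are not separate evidence.

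Labelled stress against control put fewer of the 7 apart. In aba2-1 it put FAD2 lower, 1 of 7 against 3.57% of all genes, and in p5cs1-4 FAD4, 1 of 7 against 5.84%. In WT it put 0 of 7 apart, against 8.54% of all genes. The median log2 ratio of the 7 was 0.24 in aba2-1, -0.79 in p5cs1-4 and 0.12 in WT, and all 7 were lower in the p5cs1-4 library labelled stress than in its control. In that same p5cs1-4 comparison 4 of the 7 root markers past the floor were 2-fold higher and 0 lower, against 4.03% of all genes higher, with a median log2 ratio of 1.62. Among the higher ones, the phosphate transporter gene AT5G43350 went from 16.7 CPM in the control to 63.4 CPM. Up to 68.5% of its reads in a library mapped to several places. The root marker SHR went the other way, from 20.4 to 16.3 CPM. Of 8 leaf mesophyll markers 3 were lower in this comparison, against 5.84% of all genes, with a median of -0.89. The part of both marker lists in the result was not tested. Several values stood close to the 2-fold line. FAD8 in aba2-1 labelled release against labelled stress at -1.002 was just beyond it, and FAD2 in p5cs1-4 labelled stress against control at -0.99, FAD8 in aba2-1 labelled stress against control at 0.98 and FAD4 in p5cs1-4 labelled release against control at -0.97 were just short of it.

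**Figure D2:**
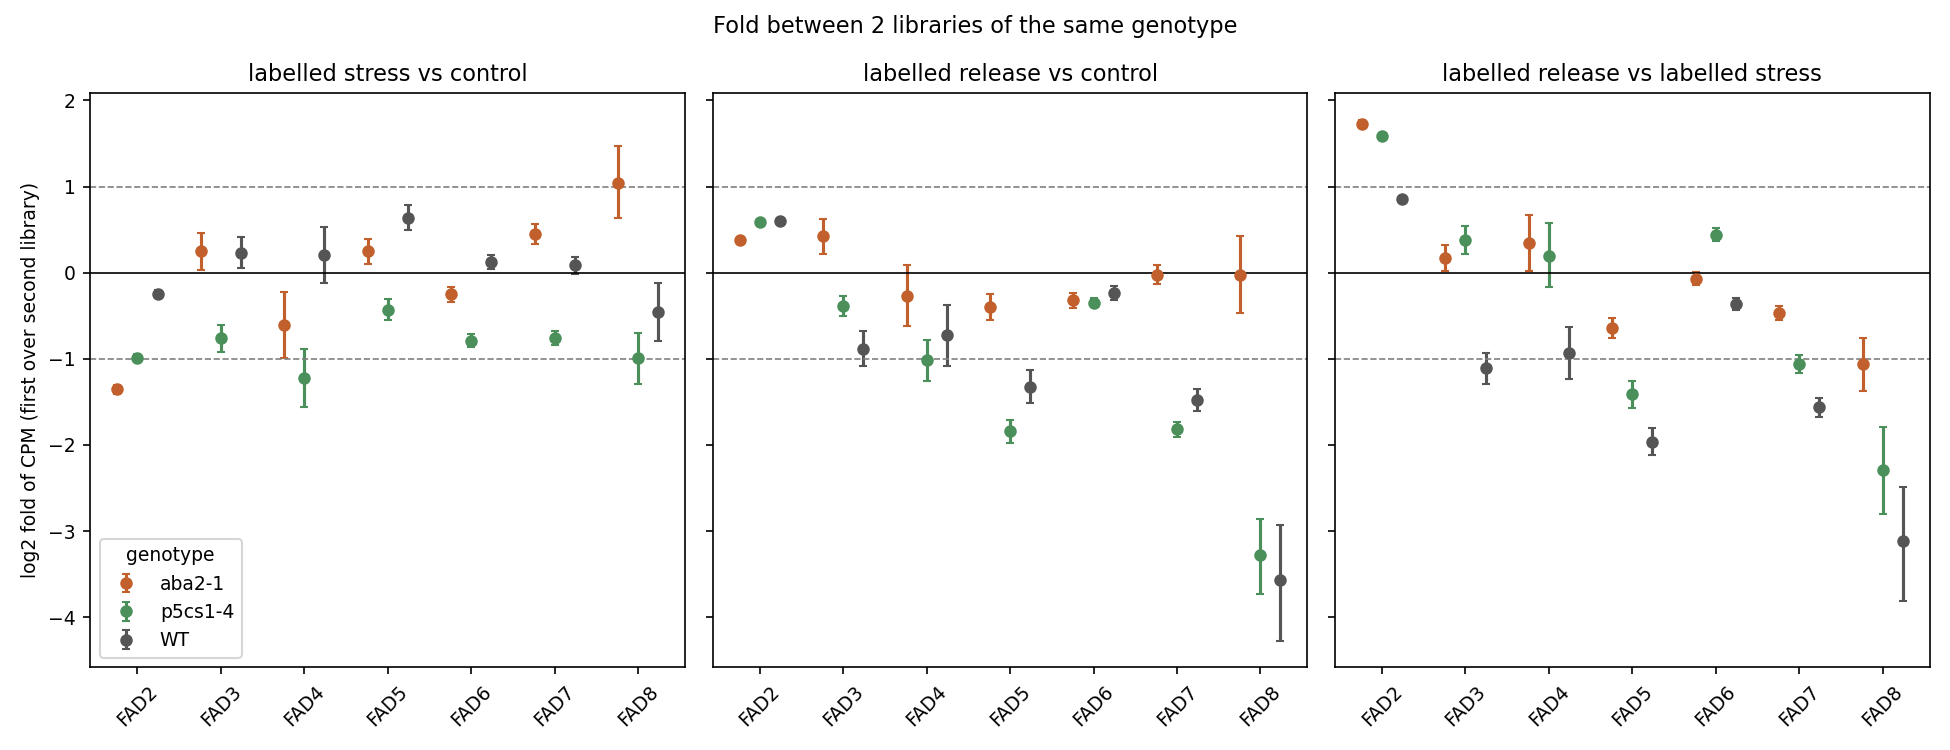
Log2 fold of CPM of each gene between 2 libraries of the same genotype, drawn without the added 1 CPM, in 3 panels for the 3 treatment comparisons. Points are single comparisons of 1 library with 1 library, error bars are 95% counting intervals and dashed lines mark 2-fold. In the middle panel FAD5, FAD7 and FAD8 lie beyond the lower line in p5cs1-4 and WT and within both lines in aba2-1. FAD4 in p5cs1-4, at 0.494-fold, lies just beyond the lower line there as well.

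The mutants were also set against WT at each treatment. Under control conditions all 7 genes were lower in aba2-1 than in WT, but FAD8 alone was 2-fold apart, at 0.361-fold (0.262 to 0.492), 1 of 7 where 9.48% of all genes were lower. In the libraries labelled stress FAD2 and FAD4 were lower in aba2-1 than in WT, at 0.301-fold (0.291 to 0.311) and 0.388-fold (0.312 to 0.481), 2 of 7 against 6.49% of all genes. In the libraries labelled release FAD8 was higher in aba2-1 than in WT at 4.22-fold (2.70 to 6.87), 1 of 7 against 4.80%. FAD5, FAD7 and FAD3 were likewise above WT in that comparison, at 1.599-fold, 1.55-fold and 1.39-fold, whereas FAD2 and FAD6 were at 0.553-fold and 0.629-fold. All 3 omega-3 genes and FAD5 were thus on opposite sides of WT in the aba2-1 control and labelled release libraries, while FAD2 and FAD6 were below WT in all 3 aba2-1 libraries.

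The p5cs1-4 libraries lay closer to WT in 2 of the 3 treatments. Under control conditions 0 of the 7 genes were 2-fold apart, against 6.51% of all genes, and the log2 ratios lay between -0.16 for FAD2 and 0.16 for FAD5. In the libraries labelled release 0 of the 6 genes past the floor were apart, against 3.13% of all genes, with FAD8 below the floor in both genotypes. In the libraries labelled stress all 7 were lower in p5cs1-4 than in WT, by log2 ratios between -0.52 for FAD8 and -1.36 for FAD4. FAD4 alone was 2-fold apart, 1 of 7 against 6.53% of all genes that were lower.

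With 1 library a group, the test available was a model of treatment and genotype over all 9 libraries, in which departures from additivity count as error. It was fitted to 19600 genes with edgeR's quasi-likelihood test and a threshold of 0.05 on the Benjamini-Hochberg adjusted p. For labelled release against labelled stress, FAD2 passed with a log2 fold of 1.37 (SE 0.28, adjusted p = 0.0463), 1 of 7 where 1.54% of all genes were called higher, and it was higher in 3 of 3 genotypes. The call was lost without the WT libraries (adjusted p = 0.255), without the p5cs1-4 libraries (0.375) and without the control libraries (0.0747), with log2 folds of 1.64, 1.26 and 1.38, as edgeR's test then called 0, 0 and 33 genes of the whole table, where it called 730 with all libraries. Over the other alternatives tried the adjusted p of FAD2 lay between 4.25e-06 with DESeq2 and 0.0450 with median-of-ratios scaling in edgeR.

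The 3 plastid genes that were lowest in the libraries labelled release did not pass that model. FAD5 had a log2 fold of -1.18 (SE 0.32) for labelled release against control, with an adjusted p of 0.0686 in edgeR's test, and was lower in 3 of 3 genotypes. FAD8 had -2.29 (SE 0.66, adjusted p = 0.0781) and FAD7 -1.12 (SE 0.35, adjusted p = 0.0936) in the same edgeR test. Of the 7 genes 0 were called there, against 5.73% of all genes, while 3 were under an unadjusted p of 0.05, as were 28.1% of all genes, and DESeq2 called 3 of the 7 and 3284 of all genes. Without the aba2-1 libraries edgeR gave log2 folds of -1.61, -1.66 and -3.39 for FAD5, FAD7 and FAD8, with adjusted p-values of 0.00775, 0.00515 and 0.00155, and it called 3833 genes of the whole table. Against labelled stress, FAD5 was at -1.32 (SE 0.32, adjusted p = 0.0617), FAD8 at -1.93 (SE 0.62, adjusted p = 0.115) and FAD7 at -0.99 (SE 0.34, adjusted p = 0.135) in edgeR's test.

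For labelled stress against control edgeR called 0 genes of the whole table, with 1617 under an unadjusted p of 0.05, and 0 of the 7, of which 1, FAD2, had an unadjusted p under 0.05. DESeq2 called 67 genes there and 0 of the 7. For aba2-1 against WT edgeR again called 0 genes, with 2875 under an unadjusted p of 0.05, while DESeq2 called 531, among them FAD2 and FAD6. The log2 fold of FAD2 was -1.08 (SE 0.27, adjusted p = 0.219 with edgeR) and that of FAD6 was -0.75 (SE 0.21, adjusted p = 0.234), the 2 genes of the 7 with an unadjusted p under 0.05. For p5cs1-4 against WT edgeR called 0 genes, with 2107 under an unadjusted p of 0.05, and DESeq2 157, with 0 of the 7 in either, and 0 of the 7 had an unadjusted p under 0.05 with edgeR.

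Whether the response of aba2-1 differed from that of the other genotypes was tested in a model chosen after the values were seen. It gives aba2-1 its own response to treatment and lets p5cs1-4 and WT share the other, with 2 residual degrees of freedom. The difference in labelled release against control was a log2 fold of 3.37 for FAD8 (SE 0.53, adjusted p = 0.0672 in edgeR's test), 1.64 for FAD7 (SE 0.41, adjusted p = 0.118) and 1.22 for FAD5 (SE 0.46, adjusted p = 0.231), positive where the ratio was higher in aba2-1. None of the 7 passed in edgeR, where 0.117% of all genes did. These 3 had an unadjusted p under 0.05, as had 17.4% of all genes, and DESeq2 called FAD7 and FAD8 among 825 genes. With so few degrees of freedom this test finds few differences, and a gene that did not pass is not shown to respond alike. Without a filter on low values edgeR's adjusted p for FAD8 was 0.00967. For labelled stress against control 0 of the 7 passed edgeR's test of the difference, where 0.00510% of all genes did, and DESeq2 called 0 of them. FAD8, with a difference of 1.75 (SE 0.51, adjusted p = 0.509), was the 1 gene with an unadjusted p under 0.05. For labelled release against labelled stress edgeR called 0 genes of the whole table, with 1221 genes and 2 of the 7 under an unadjusted p of 0.05, and DESeq2 called 102 genes and 0 of the 7.

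**Figure D3:**
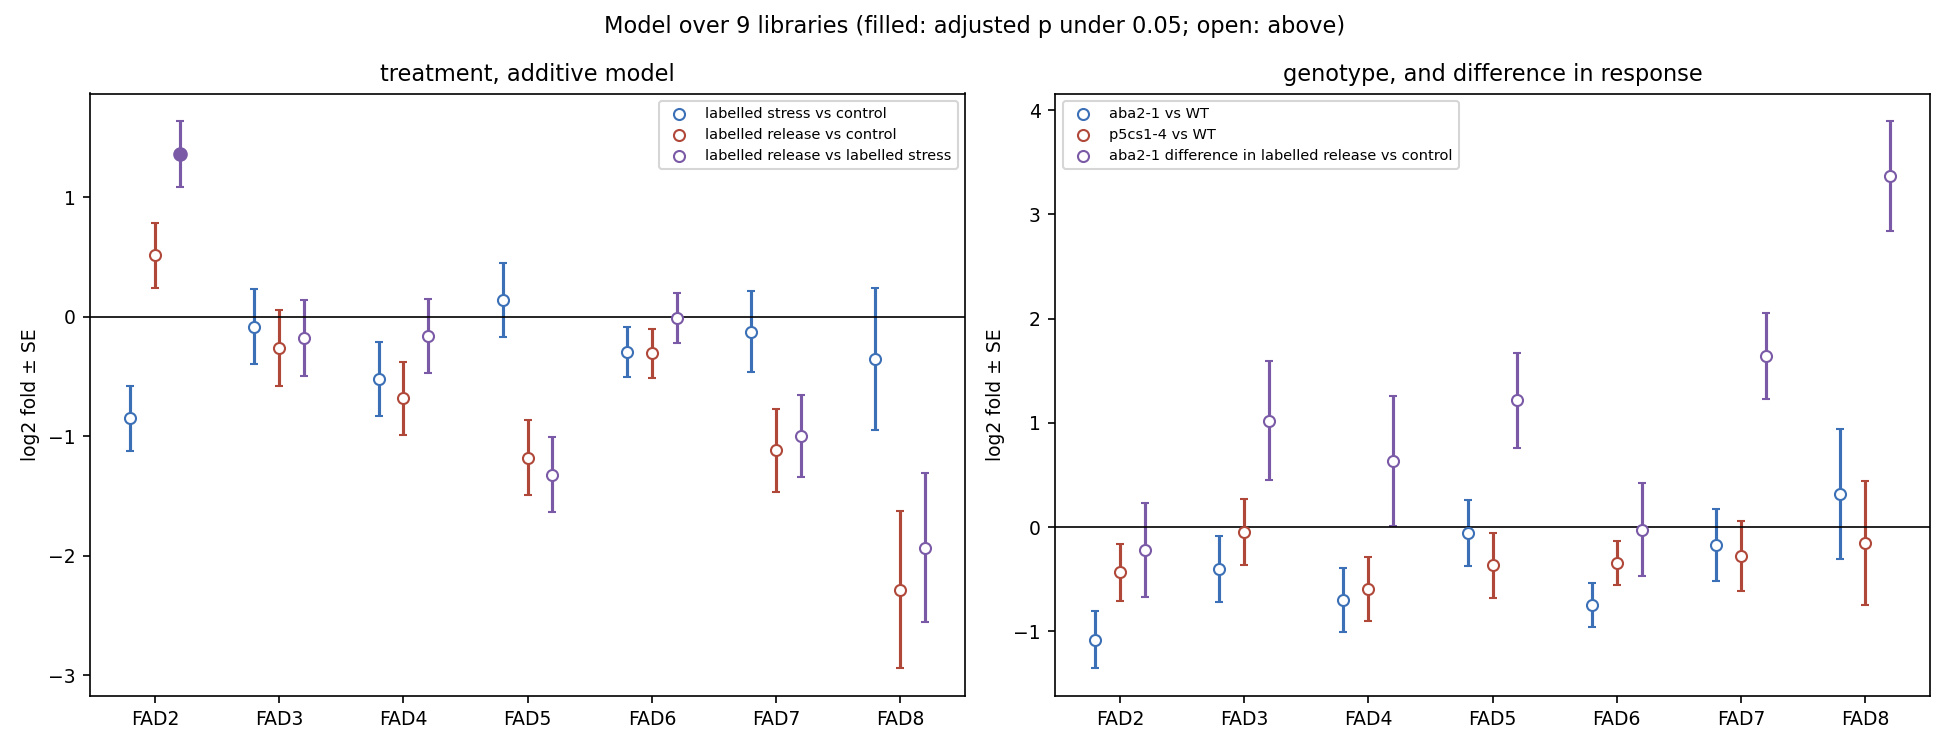
Log2 fold ± SE of each gene in the edgeR models over 9 libraries. The left panel gives the 3 treatment contrasts of the additive model, and the right panel the contrasts of aba2-1 and p5cs1-4 with WT and the difference of aba2-1 in labelled release against control; FAD2 in labelled release against labelled stress, at 1.37, is the filled point, and open points are above the adjusted p threshold of 0.05.

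Ratios within a library do not depend on scaling between libraries. FAD2 over FAD3, the transcripts of the successive ER steps, was 20.1, 6.63 and 19.5 by RPKM in the aba2-1 control, labelled stress and labelled release libraries. It was 14.3, 12.2 and 28.2 in p5cs1-4, and 17.6, 12.6 and 49.1 in WT. The highest ratio was that of the WT library labelled release and the lowest that of the aba2-1 library labelled stress. FAD2 made up 62.3%, 37.5% and 70.7% of the summed RPKM of the 7 genes in the aba2-1 control, labelled stress and labelled release libraries, 58.5%, 54.2% and 80.0% in p5cs1-4, and 62.2%, 54.6% and 81.0% in WT. In all 3 genotypes its share was highest in the library labelled release and lowest in that labelled stress.

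In plastids the balance between the transcripts of the omega-6 and omega-3 steps differed between libraries. FAD6 over the sum of FAD7 and FAD8 was 1.68, 0.997 and 1.36 by RPKM in the aba2-1 control, labelled stress and labelled release libraries, 1.27, 1.27 and 3.76 in p5cs1-4, and 1.37, 1.45 and 3.50 in WT. The p5cs1-4 and WT libraries labelled release stood apart from the other 7 libraries, all of which were below 2. FAD7 over FAD8 was 13.7, 9.08 and 13.7 by RPKM in the aba2-1 series, 9.48, 11.1 and 26.1 in p5cs1-4, and 8.76, 12.8 and 37.4 in WT, highest in the same 2 libraries. Of the summed RPKM of the 3 omega-3 genes, FAD3 made up 47.7% in the p5cs1-4 library labelled release and 33.6% in the WT one, and between 21.2% and 30.4% in the other 7 libraries.

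**Figure D4:**
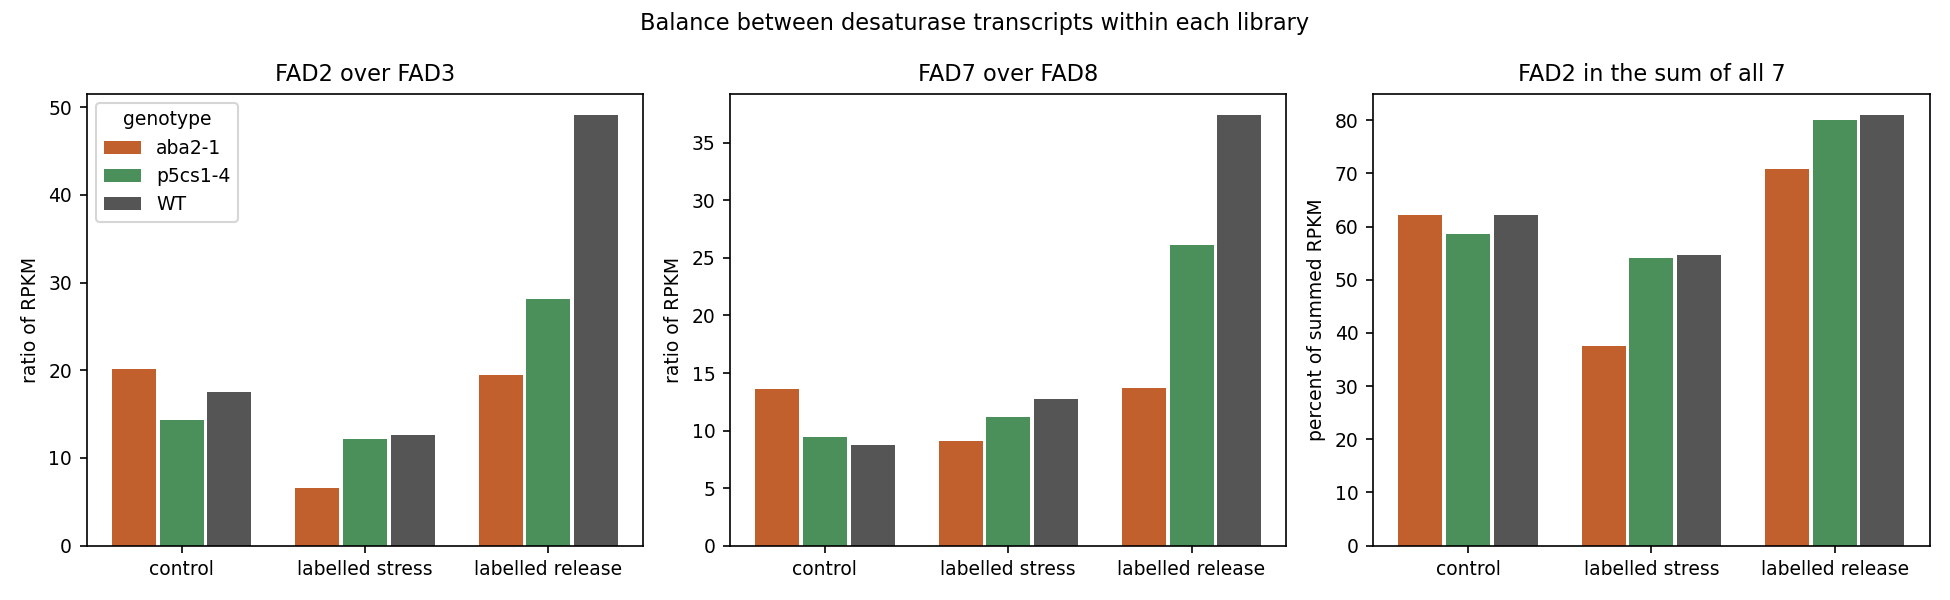
Ratios within a library by RPKM, for FAD2 over FAD3, FAD7 over FAD8, and FAD2 as a percentage of the summed RPKM of all 7 genes, by treatment label and genotype. Each bar is 1 library with no error bar; FAD7 over FAD8 reaches 26.1 in p5cs1-4 and 37.4 in WT in the libraries labelled release, against 13.7 in aba2-1.

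Genes that work with the desaturases were followed as lists. Over all genes edgeR's test called 1.79% higher and 3.94% lower for labelled release against control, and 1.54% higher and 2.19% lower against labelled stress. Of 7 ferredoxin and ferredoxin reductase genes tested of 8, which supply electrons in plastids, edgeR's test called 0 higher and 2 lower for labelled release against control, and 0 higher and 1 lower against labelled stress. They were the leaf ferredoxins FD1, at -1.96 (SE 0.20, adjusted p = 0.0140) against control and -1.44 (SE 0.20, adjusted p = 0.0244) against labelled stress, and FED A, at -1.62 (SE 0.24, adjusted p = 0.0222) against control. FD1 had 53.8, 56.6 and 81.2 CPM in the aba2-1, p5cs1-4 and WT libraries labelled release, against 197, 296 and 244 CPM in the controls. Unlike FAD7, it was thus lower than its control in all 3 genotypes by more than 2-fold. Of 6 cytochrome b5 and cytochrome b5 reductase genes, which supply the ER enzymes, 1 was called, CB5-C, lower at -1.58 (SE 0.17, adjusted p = 0.0147 in edgeR's test) against control and -1.005 (SE 0.17, adjusted p = 0.0348) against labelled stress.

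Other desaturases gave few calls in edgeR's test, and those were for labelled release against control. Of 7 stearoyl-ACP desaturase genes, soluble plastid enzymes that make oleate, 1 passed. FTM1 was higher at 3.03 (SE 0.60, adjusted p = 0.0367), with 19.4, 4.97 and 2.30 CPM in the aba2-1, p5cs1-4 and WT libraries labelled release, against 1.68, 0.295 and 1.16 CPM in the controls. SSI2, the most abundant of them, was not called. Of 7 relatives of FAD5 and FAD4 tested of 10, AT1G06360 passed lower at -1.77 (SE 0.38, adjusted p = 0.0441 in edgeR's test) and AT1G06090 higher at 1.67 (SE 0.33, adjusted p = 0.0365). Of 3 sphingolipid desaturase genes 2 were tested, 0 called and 0 under an unadjusted p of 0.05 in that contrast.

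Of 14 genes of plastid membrane lipid synthesis 1 passed, ATS1, the plastid glycerol-3-phosphate acyltransferase that opens the plastid lipid route. It was lower at -1.36 (SE 0.21, adjusted p = 0.0222 in edgeR's test) for labelled release against control and -1.16 (SE 0.21, adjusted p = 0.0366) against labelled stress. Of 7 genes of acyl exchange and triacylglycerol synthesis in the ER 0 passed, with a median log2 fold of 0.03 against control, where that of all genes was 0.02, and 2 under an unadjusted p of 0.05. Of 10 genes that turn linolenate into jasmonate 0 passed, with a median of -0.99 for labelled release against control and 5 under an unadjusted p of 0.05. In that contrast 28.1% of all genes were under an unadjusted p of 0.05 in edgeR's test. In 2-library ratios, labelled stress against control put 4 of these 10 higher in aba2-1, with 0 lower. In p5cs1-4 and in WT it put 5 of the 10 lower, with 0 higher. The shares of all genes in those directions were 4.50% higher in aba2-1, 5.84% lower in p5cs1-4 and 4.09% lower in WT. The difference of aba2-1 in that comparison had a median of 1.98 over the 10 genes, with 0 past edgeR's threshold and 7 under an unadjusted p of 0.05, where 7.43% of all genes were. The aba2-1 control was the low one, with 6 of the 10 genes 2-fold lower than in the WT control, against 9.48% of all genes. The median log2 ratio of the 10 was -1.61. In the libraries labelled stress 2 of the 10 were higher in aba2-1 than in WT, against 6.65% of all genes. Another 2 were lower, against 6.49%, and the median was 0.34.

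Markers of other cell types were read beside these results. The summed CPM of 8 leaf mesophyll markers, none of them at 0, was 17567, 10227 and 10616 in the aba2-1 control, labelled stress and labelled release libraries, 27658, 14276 and 7058 in p5cs1-4, and 34265, 27661 and 10194 in WT. Between labelled release and control all 8 were at least 2-fold lower in p5cs1-4 and in WT, against 11.8% and 14.0% of all genes. In aba2-1 it was 2 of the 8, against 5.62% of all genes. For labelled release against labelled stress 0 of the 8 were 2-fold lower in aba2-1, 3 in p5cs1-4 and 5 in WT. The shares of all genes that were lower were 5.64%, 6.21% and 11.6% in that order. In edgeR's test of labelled release against control 2 of the 8 passed, RCA at -1.73 (SE 0.39, adjusted p = 0.0496) and RBCS1A at -1.68 (SE 0.34, adjusted p = 0.0392). The summed CPM of 10 root markers was 112, 122 and 86.2 in the aba2-1 control, labelled stress and labelled release libraries, 87.7, 160 and 106 in p5cs1-4, and 77.3, 93.5 and 83.0 in WT, with EXPA7 at 0 in the WT control and 0 of 8 tested past edgeR's threshold for labelled release against control and 1 under an unadjusted p of 0.05. The summed CPM of 7 seed markers lay between 0 and 7.92, with CRU2 and LEC1 at 0 in all 9 libraries and 0 of 1 tested past that threshold, which had an unadjusted p under 0.05. Of all genes 28.1% were under that unadjusted p in edgeR's test of labelled release against control. Up to 68.5% of the reads of the root marker AT5G43350 in a library mapped to several places. That share reached 83.3% for the root marker NRT2:1 and 37.0% for the leaf marker LHCB2.1. The part of cell composition in the results on FAD5, FAD7 and FAD8 was not tested.

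Over the 9 libraries the profiles of log2(CPM + 1) fell into groups by description. FAD7 and FAD8 had a Pearson r of 0.97, FAD5 and FAD7 0.96, and FAD5 and FAD8 0.92. FAD4 and FAD6 had 0.85. FAD2 ran against the plastid omega-3 genes, with -0.37 to FAD7 and -0.53 to FAD8, and was at 0.22 to FAD3. Libraries of 1 genotype or treatment share a source, so these 9 points are not independent, and no p is given.

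Among 9718 or 9719 genes with a mean of at least 20 CPM, the named genes with the profile most like that of a desaturase were as follows. For FAD2 they were NF-YB2 with an r of 0.98, MTN1 and SEX1, the last a starch-phosphorylating enzyme. For FAD3 they were SYP21 (0.95), MEE31 and SPS2, and for FAD4 CLC-E (0.98), PKP-BETA1 and APE1. For FAD5 they were NIK3 (0.98), RLM3 and the cuticle transporter ABCG32. For FAD6 they were GSTU13 (0.97), GIL1 and HDS, an enzyme of plastid isoprenoid synthesis. For FAD7 they were the carbonic anhydrase BCA4 (0.99), the cutin acyltransferase GPAT8 and BT5. For FAD8 they were CRK40 (0.98), KCS5, which elongates very-long-chain fatty acids, and SKU5. An r of at least 0.9 was common for FAD7 (469 genes, 4.83%), FAD5 (385 genes, 3.96%) and FAD8 (365 genes, 3.76%), and rare for FAD6 (35 genes, 0.360%) and FAD3 (13 genes, 0.134%).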

How the data were processed

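Polyadenylated RNA of whole seedlings was sequenced in 9 libraries, primed at random and amplified in PCR without molecular identifiers, per the labels' protocols. CASAVA 1.6 and TAIR10 are named, without a stated use, in the submitters' processing notes. Aligner, counter and strandedness are not given in the sources used here. Per the file headers, every deposited table gives a gene's length, its estimated count of reads, its RPKM and the fraction of its reads that map to several places. That deposited fraction amounted to between 2.79% and 3.89% of the reads of a library. The authors' estimated counts share out multi-mapping reads and were rounded here to whole numbers. RPKM were used as deposited by the authors to compare levels between genes.

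Estimated counts were scaled to CPM with TMM factors (edgeR 4.0.16, R 4.3.3). Totals ran from 4898426 to 18273148 reads, so that a given CPM rested on the fewest reads in the WT control. The 15 comparisons of 2 libraries use the log2 ratio of CPM + 1, with an exact 95% conditional interval for counting error and no p-value. A gene counted as apart at 2-fold or more where 1 of the libraries had 5 CPM or more. The additive model of treatment and genotype covered all genes with a mean of 1 CPM or more (edgeR's quasi-likelihood test with 4 residual degrees of freedom, threshold 0.05 on the Benjamini-Hochberg adjusted p), and so did a model with a separate response of aba2-1, added after the values were seen. Alternatives were DESeq2 1.42.0, limma 3.58.1 on log2(RPKM + 1), other scaling, pseudocounts and floors, reads that map to 1 place, and each genotype or treatment left out. The models were tested on counts simulated with a set dispersion that was not estimated from these data. For labelled release against control the additive model recovered 41% of 2-fold and 98% of 4-fold changes. For the difference of aba2-1 in that contrast, the other model recovered 0% of 2-fold and 2% of 4-fold changes. A gene that did not pass is thus not shown to be unchanged. Locus names of 32709 of the 33518 genes matched TAIR10.1, from which coordinates and sequences were read, and coding sequences were aligned with Biopython 1.88. One coding sequence result on FAD7 and FAD8 is not reported here.

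The 7 genes and the 12 lists beside them (desaturase relatives, electron donors, lipid synthesis, jasmonate synthesis, cell type markers and label checks) were chosen with earlier results of these data known. The text names, beside all 7 and 4 genes that check the labels, up to 4 genes of a list that passed the model with the largest folds, and for each of the 7 genes the 3 genes with a symbol that are most like it by Pearson r.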

Additional observations from a re-analysis of the deposited data

Results flagged for a closer look

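For 6 of the 7 genes the log2 ratio of CPM + 1 between 2 treatments pointed in opposite directions in different genotypes, with counting intervals that exclude no change on both sides. With 1 library a group, only differences of aba2-1 from the other genotypes were tested, through the model that gives aba2-1 its own response. The other genotypes share 1 response to treatment in that model, so differences in response between them were not tested and count as error. That model has 2 residual degrees of freedom and finds few differences, so that it says nothing of whether the genotypes respond alike.

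Labelled stress against control split FAD3 into 0.24 in aba2-1, -0.75 in p5cs1-4 and 0.23 in WT. It split FAD5 into 0.25 in aba2-1, -0.43 in p5cs1-4 and 0.64 in WT. FAD6 was at -0.25 in aba2-1, -0.79 in p5cs1-4 and 0.12 in WT. FAD7 was at 0.45 in aba2-1 and -0.76 in p5cs1-4. FAD8 was at 0.98 in aba2-1, -0.95 in p5cs1-4 and -0.44 in WT. The p5cs1-4 value was the lowest in each of these 5 genes.

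Labelled release against control put FAD3 at 0.41 in aba2-1, -0.38 in p5cs1-4 and -0.87 in WT. Labelled release against labelled stress put FAD3 at 0.17 in aba2-1, 0.37 in p5cs1-4 and -1.10 in WT, FAD4 at 0.32 in aba2-1 and -0.89 in WT, and FAD6 at 0.44 in p5cs1-4 and -0.36 in WT. In the last comparison it was WT that stood below the mutants.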

How the results depend on the processing

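No paired analysis was possible because each group is 1 library of pooled RNA, so that no replicate numbers pair the samples. Of 630 log2 ratios of the 7 genes recomputed under 6 alternatives, 50 moved out of their counting interval and 8 changed sign, 7 of them with RPKM. None of those 8 was 2-fold apart, and the largest was of size 0.09 as reported. Of 90 counts of genes 2-fold apart, 81 were equal to those reported. For labelled stress against control, aba2-1 gave 2 in place of 1 with a pseudocount of 0.1 and with RPKM, and p5cs1-4 gave 0 in place of 1 with RPKM and 2 with reads that map to 1 place. For labelled release against labelled stress, aba2-1 gave 1 in place of 2 with RPKM and with reads that map to 1 place. For aba2-1 against WT in the libraries labelled release the count was 0 in place of 1 with a floor of 20 CPM. In p5cs1-4 labelled release against control gave 4 in place of 3 with a pseudocount of 0.1, and against labelled stress 3 in place of 4 with a floor of 20 CPM. Both shifts with the floor of 20 CPM follow from the rule, as FAD8 was below it in both libraries. It was at 11.1 and 2.64 CPM in the aba2-1 and WT libraries labelled release, and at 3.20 and 15.7 CPM in the p5cs1-4 libraries labelled release and labelled stress. Those with a pseudocount of 0.1 are of FAD8 in aba2-1 and FAD4 in p5cs1-4, at 2.05-fold and 0.494-fold without an added 1 CPM. The cause of the other shifts was not tested.

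In the additive model DESeq2 called 3 of the 7 genes in place of 0 for labelled release against control, and 3284 of all genes. Against labelled stress it called 4 of the 7 in place of 1, and 2581 of all genes. For aba2-1 against WT it called 2 of the 7 in place of 0, and 531 of all genes. Without the libraries of aba2-1, the genotype already seen to differ, edgeR called 3 and 4 of the 7 in the first 2 of these contrasts. Without WT, p5cs1-4 or control libraries, labelled release against labelled stress gave 0 of the 7. The difference of aba2-1 in labelled release against control gave 2 calls with DESeq2 and 1 with no filter on low values, in place of 0. Over all genes, labelled release against control called 1123 genes in edgeR and 3284 in DESeq2, 3833 without aba2-1, and 0 without WT, without p5cs1-4 or without the libraries labelled stress. The difference of aba2-1 in that contrast called 23 genes in edgeR, 825 in DESeq2, 763 with no filter, 67 with reads that map to 1 place and 37 with median-of-ratios scaling. Of 420 model folds of the 7 genes, 20 changed sign. None of them passed the threshold before or after, and the largest was of size 0.35 with all libraries in edgeR. For labelled stress against control, limma on RPKM gave 0.0456 for FAD3 and 0.0668 for FAD7. The fit without WT gave -0.14 for FAD5, and that without p5cs1-4 gave 0.24 for FAD3, 0.24 for FAD7 and 0.0862 for FAD8. For labelled release against labelled stress, FAD6 was at 0.0456 with limma and 0.0172 without aba2-1. Without WT, FAD3 was at 0.25, FAD4 at 0.26 and FAD6 at 0.17. For aba2-1 against WT, FAD5 was at 0.0901 with limma, 0.0192 without control and 0.27 without labelled stress libraries, FAD7 at 0.0812 without control and FAD8 at -0.58 without labelled release libraries. For p5cs1-4 against WT, FAD3 was at 0.0717 with limma and 0.35 without labelled stress libraries, where FAD8 was at 0.0653. The difference of aba2-1 in labelled release against control was 0.0172 for FAD6 with limma. Depth limits FAD8 most, with 23 to 528 reads a library.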
